A study of Mus musculus with 16 samples.

Results

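The genes described here move bile acids through the intestinal epithelium or sense them there, and they are the 8 genes Slc10a2, Fabp6, Slc51a, Slc51b, Nr1h4, Nr0b2, Fgf15 and Abcb11. They were found by their gene symbol among the 24421 genes of the count files. All 8 were present, and all 8 passed the filter on low counts that left 13429 genes for testing.

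Bile acids are made in the liver, released into the gut with a meal and recovered in the terminal ileum, from where the portal blood returns them to the liver. An enterocyte takes them up across its brush border, carries them through the cytosol on a binding protein and releases them across its basolateral membrane. Inside the cell they bind the farnesoid X receptor (FXR), a nuclear receptor, which induces the hormone Fgf15 (FGF19 in humans), and Fgf15 acts on the liver to lower bile acid synthesis. In adult rodents the ileum is the main site of this recovery.

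Bulk RNA sequencing was performed on epithelium released with EDTA from a segment of jejunum and a segment of ileum of the same mouse. The mice were wild type (WT) C57BL6/J, aged postnatal day 6 (P6) or postnatal day 36 (P36), with no treatment or transgene named in the labels. Each age had 4 mice, 2 male and 2 female, which gave 16 libraries in 4 groups of 4. A replicate number denotes the same mouse in both regions of an age, and replicates 1 and 2 were female and 3 and 4 male.

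Library totals ranged from 12159237 to 25947276 counts. The 4 epithelial markers Epcam, Cdh1, Krt8 and Vil1 summed to between 3623 and 12710 CPM (counts relative to the library total, scaled by TMM factors) in the 16 libraries. The jejunal genes Gata4 and Fabp1 summed to 1499 to 3634 CPM in jejunum and 1.51 to 69.7 CPM in ileum. Every library thus matched its labelled region in these jejunal genes. The ileal genes Pyy, Nts and Cldn8 summed to 96.7 to 130 CPM in P6 jejunum and 362 to 462 CPM in P6 ileum. At P36 they did not separate the regions, with 34.1 to 90.2 CPM in jejunum and 51.1 to 82.9 CPM in ileum. Some libraries stood apart. The chi-square statistic per gene against the other P6 ileum libraries was 226 to 272 for P6 ileum replicate 4 and 20.4 to 41 among those 3, and in P36 ileum it was 265 between replicates 1 and 3. In P6 ileum replicate 2 the 4 smooth muscle markers summed to 181 CPM against 0.862 to 2.84 CPM in the other P6 libraries, and the 5 fibroblast markers to 239 CPM. In bulk epithelium, fewer cells of a type and less RNA per cell cannot be told apart. Age and any difference in handling between the mice of the 2 ages also cannot be told apart.

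The promoters of Abcb11, Fabp6 and Slc10a2 are printed because each held a window close to a known binding motif. Promoters of the members were read from the RefSeq table for GRCm38.p6 (mm10), from 250 bases before to 50 bases after the start site, which held 7 of the 8 genes. Nuclear receptor pairs such as FXR with RXR bind an inverted repeat of a half-site with a spacer of 1 base (IR-1), AGGTCANTGACCT, and the enterocyte and hepatocyte factor HNF1 binds the palindrome GTTAATNATTAAC. Both strands were searched, each motif has 12 fixed bases, and capitals mark the window with the fewest mismatches to IR-1 in Abcb11 and Fabp6 and to the HNF1 palindrome in Slc10a2.
Abcb11, chr2:69342567-69342866, minus strand: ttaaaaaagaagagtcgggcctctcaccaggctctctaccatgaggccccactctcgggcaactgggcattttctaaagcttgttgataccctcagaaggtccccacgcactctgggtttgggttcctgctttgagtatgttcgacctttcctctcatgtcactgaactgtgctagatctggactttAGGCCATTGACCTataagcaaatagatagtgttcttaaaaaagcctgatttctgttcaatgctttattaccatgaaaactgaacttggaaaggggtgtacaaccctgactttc
Fabp6, chr11:43601513-43601812, minus strand: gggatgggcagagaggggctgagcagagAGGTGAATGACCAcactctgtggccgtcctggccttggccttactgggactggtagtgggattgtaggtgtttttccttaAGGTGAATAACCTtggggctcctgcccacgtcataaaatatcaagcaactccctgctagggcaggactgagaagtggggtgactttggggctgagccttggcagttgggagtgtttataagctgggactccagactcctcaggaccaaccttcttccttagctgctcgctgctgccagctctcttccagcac
Slc10a2, chr8:5105238-5105537, minus strand: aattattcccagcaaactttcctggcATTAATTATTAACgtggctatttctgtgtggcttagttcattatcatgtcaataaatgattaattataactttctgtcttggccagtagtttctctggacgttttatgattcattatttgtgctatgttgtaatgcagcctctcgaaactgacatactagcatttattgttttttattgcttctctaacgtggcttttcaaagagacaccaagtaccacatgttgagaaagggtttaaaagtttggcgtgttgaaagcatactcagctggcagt

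In Abcb11 the best IR-1 window had 1 mismatch, at positions -63 to -51 from the start site, and 0.0822% of the 32851 promoters in the table had a window that close. Fabp6 had a pair of windows with 2 mismatches, AGGTGAATGACCA at -222 to -210 and AGGTGAATAACCT at -142 to -130, a closeness reached by 1.14% of promoters. Slc51a and Slc51b had 3 mismatches, as did or bettered 11.4% of promoters, and the best windows of Slc10a2, Nr1h4 and Nr0b2 had 4, which 56.4% reached. The HNF1 palindrome was matched with 1 mismatch in Slc10a2, at -224 to -212 (0.207% of promoters), and with 2 in Nr1h4 (1.36%), where the RefSeq start site lay 26964 bases from the gene edge used for counting. The best HNF1 window had 4 mismatches in Fabp6 (38.3%) and 5 in Slc51a, Slc51b, Nr0b2 and Abcb11 (80.3%). Nr0b2 thus had a close window for neither motif. The start site was the gene edge of the count files for Fabp6 and Abcb11 and lay 55 bases from it for Slc10a2. Fgf15 was not in the promoter table. These are matches of letters, not measured binding sites, and no window says anything about whether a factor was bound in these tissues.

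Of the 8 genes, 4 were called between the regions at P6, where a gene was called when its adjusted p was below 0.05 and its log2 fold change exceeded 2 in size. Fabp6 and Slc10a2 were higher in ileum, a direction called for 4.30% of all tested genes, and Nr0b2 and Abcb11 were lower, a direction called for 2.20%. At P36, 5 were called: Fabp6, Slc10a2, Fgf15 and Nr1h4 were higher in ileum (1.55% of tested genes) and Abcb11 was lower (2.06%). By adjusted p alone, 6 of the 8 passed at P6 and 7 at P36, against 25.9% and 16.1% of tested genes.

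Between the ages, 5 of the 8 were called in the jejunum. Fabp6 and Slc10a2 rose from P6 to P36 (7.86% of tested genes called higher), and Fgf15, Nr0b2 and Abcb11 fell (8.59% called lower). In the ileum 4 were called: Fabp6, Slc10a2 and Slc51b rose (6.40%) and Abcb11 fell. That single fall, 1 gene of 8, is close to the 10.0% of tested genes called lower and describes Abcb11 alone. By adjusted p alone 6 of 8 passed in the jejunum, above the 51.6% of all tested genes. In the ileum 5 of 8 passed, close to the 55.7% of all tested genes. With so few genes neither count is read as a result about the group.

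The regional difference itself changed with age for 5 of the 8 genes, by an interaction test at an adjusted p below 0.05. In all 5, Slc51a, Slc51b, Nr1h4, Nr0b2 and Fgf15, the difference moved toward the ileum from P6 to P36, meaning that ileum over jejunum rose. Of tested genes, 3.68% moved this way and 5.01% the other way. Slc51a and Slc51b were higher in ileum at P36 (1.91 and 3.46 on the log2 scale). Nr1h4, Nr0b2 and Fgf15 instead were lower in jejunum (-1.85, -7.58 and -9.30). Their ileal changes, 0.03, -0.58 and -1.97, did not pass, and Nr0b2 at P36 had 35 counts in ileum and 13 in jejunum. The estimates of the other 3 genes were also positive but did not pass, and that of Abcb11 rested on 4 ileal and 22 jejunal counts at P36. The median over the 8 was 3.25 on the log2 scale, against -0.02 over all tested genes.

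**Figure D1:**
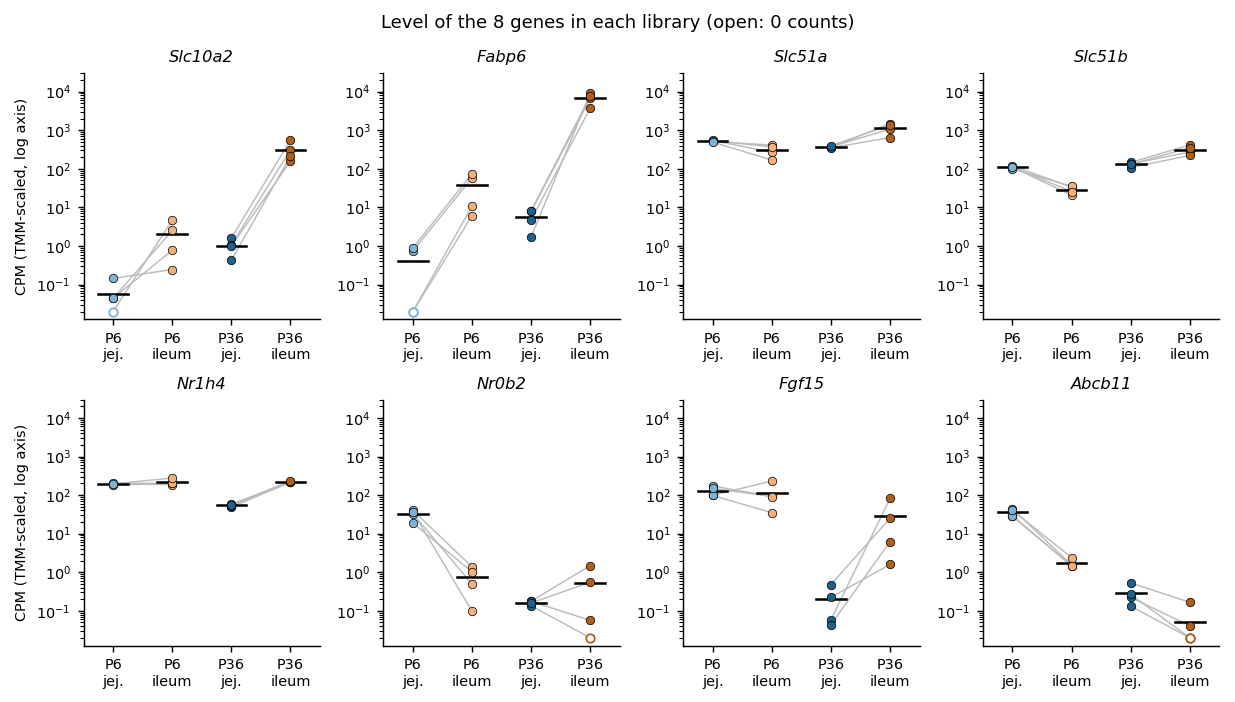
Level of each of the 8 genes in each of the 16 libraries, as TMM-scaled CPM on a log axis, by age and region. Points are libraries, grey lines join the regions of a mouse, black bars are group means and open points at the foot are libraries with 0 counts. Fabp6 and Slc10a2 were highest in P36 ileum, and Nr0b2 and Abcb11 were highest in P6 jejunum.

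Slc10a2 (mm10 chr8:5085623-5105232, minus strand) encodes the apical sodium-dependent bile acid transporter (ASBT), which carries bile acids across the brush border. It was close to absent in the P6 jejunum, low in the P6 ileum and high in the P36 ileum. In P6 jejunum the 4 libraries held 1, 1, 0 and 3 counts, and a count of 0 in replicate 3 allowed up to 0.147 CPM. P6 ileum had 2.52, 0.775, 4.66 and 0.245 CPM in replicates 1 to 4. The ileum was higher in each of the 4 mice, by 4.97 on the log2 scale (SE 1.02, adjusted p = 0.00202), although replicate 4 had just 5 counts in ileum against 3 in jejunum. Summed over mice, 160 counts in ileum against 5 in jejunum gave a ratio of 33.2 with a counting interval of 13.9 to 103 (95%, counting error only, as for the intervals and limits below).

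At P36 the jejunum had 1.59, 1.06, 0.988 and 0.426 CPM of Slc10a2 and the ileum 560, 311, 158 and 211 CPM. No value of one region came near the other. The log2 fold change was 8.25 (SE 0.74, adjusted p = 2.43e-06). From P6 to P36 the transporter rose by 7.26 on the log2 scale in ileum (SE 0.70, adjusted p = 3.59e-07) and by 3.97 in jejunum (SE 1.11, adjusted p = 0.00703). The P36 jejunum libraries lay within the range of the P6 ileum libraries. The regional difference at P36 exceeded that at P6 by 3.29 on the log2 scale with an SE of 2.05, and that excess did not pass the test (adjusted p = 0.359).

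Fabp6 (mm10 chr11:43596040-43601562, minus strand) encodes the ileal bile acid binding protein that carries bile acids through the enterocyte cytosol. It showed the widest range of the 8 genes, from 0 counts in a pair of P6 jejunum libraries to the level of the most abundant transcripts of the P36 ileum. The P6 jejunum libraries had 0.742, 0, 0.893 and 0 CPM, the zeros of replicates 2 and 4 allowing up to 0.117 and 0.129 CPM. The P6 ileum libraries had 58.2, 10.9, 74.3 and 6.13 CPM. The groups did not overlap, and the log2 fold change was 6.51 (SE 1.02, adjusted p = 0.000209).

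In P36 jejunum Fabp6 was at 1.71, 7.85, 4.76 and 8.21 CPM and in P36 ileum at 9114, 6647, 3727 and 7683 CPM. The lowest ileum library was still far above the highest jejunum library. The regions differed by 10.23 on the log2 scale (SE 1.09, adjusted p = 1.18e-05), and within mice by 9.58 to 12.30. The rise with age was 7.51 on the log2 scale in ileum (SE 0.98, adjusted p = 8.67e-06) and 3.79 in jejunum (SE 0.96, adjusted p = 0.00374). In the mean of the P36 ileum libraries Fabp6 ranked 4 by CPM among the 13429 tested genes and 3 by FPKM (CPM per kilobase of exon), while in P6 ileum it ranked 4925 by CPM.

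The regional difference of Fabp6 at P36 exceeded that at P6 by 3.72 on the log2 scale (SE 1.30), with an adjusted p of 0.0926 in the fit of group means. With mouse as a replicate block the excess was 3.60 and passed, with an adjusted p of 0.0315. The pairing comes from the design, in which each mouse gave both regions.

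The P6 ileum libraries differed among themselves in both uptake genes, in the same order of replicates 3, 1, 2 and 4 from high to low. Replicate 4, the lowest, was also the library that stood apart over all genes, with a chi-square per gene of 226 to 272. Whether that bears on the order was not tested. Gata4, a transcription factor of the proximal small intestine, had 8.98, 18.4, 3.25 and 34.7 CPM in replicates 1 to 4 of P6 ileum, which is the reverse order. At P36 the order was not reversed: Gata4 was at 31.6, 5.56, 0.735 and 2.3 CPM, and replicate 1 was highest in Gata4, Fabp6 and Slc10a2 alike. Slc10a2 then stood in the same order of libraries as Gata4, the opposite of P6, and Fabp6 did not follow that order throughout. The segments came from the middle of each region, and the exact position of each was not given in the sources used here. Its part in the spread was not tested. The identifiers of the P6 mice also fall into pairs that share their first part, replicates 1 and 3 against 2 and 4, a split looked at after the data were seen. Ileal Fabp6 and Slc10a2 were higher in both mice of the former pair, and within that pair the log2 ratio of mean Fabp6 levels between regions was 6.34. In the other pair the jejunum held 0 counts of Fabp6, so no ratio was taken, and the Slc10a2 ratio was 2.44 against 7.36 in the former pair. Both Slc10a2 ratios rest on very few jejunal counts, 1 and 0 in the former pair and 1 and 3 in the other. What that part of the identifiers stands for was not given in the sources used here.

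**Figure D2:**
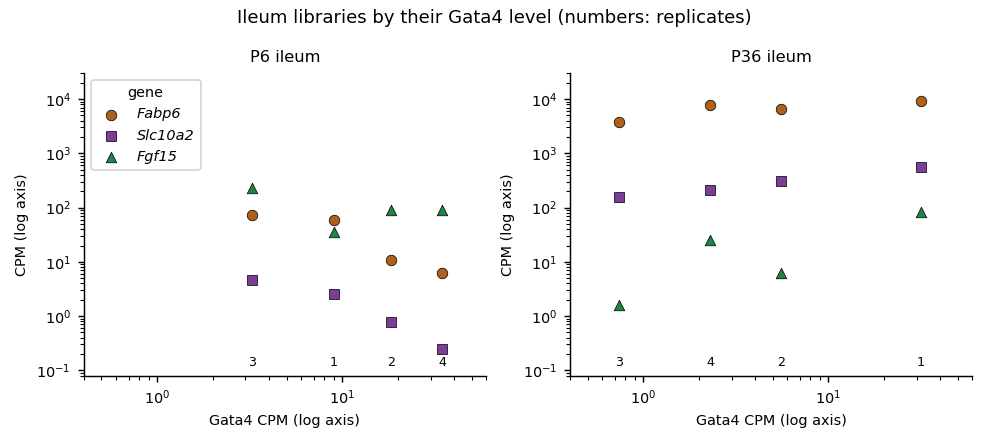
CPM of Fabp6, Slc10a2 and Fgf15 against CPM of Gata4 in the 4 ileum libraries of each age, both on log axes, with replicate numbers at the foot of each panel. At P6, Fabp6 and Slc10a2 fell in order as Gata4 went from 3.25 to 34.7 CPM. At P36 neither did so, and Slc10a2 rose in order with Gata4.

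Slc51a (mm10 chr16:32475578-32487879, minus strand) and Slc51b (chr9:65412753-65422773, minus strand) encode the alpha and beta subunits of the organic solute transporter (OST), the heterodimer that releases bile acids across the basolateral membrane. Unlike the uptake genes they were well expressed in every group, and their regional order turned over with age, from higher in jejunum at P6 to higher in ileum at P36. Slc51a was at 511, 543, 535 and 493 CPM in P6 jejunum and at 411, 268, 370 and 168 CPM in P6 ileum. Each mouse was higher in jejunum. The log2 fold change was -0.77 (SE 0.26, adjusted p = 0.0377), a difference of 1.71 times, under the minimum for a call. Without P6 ileum replicate 2, the library with smooth muscle markers, it was -0.72 with an adjusted p of 0.0843. Over all alternative fits it ranged from -0.94 to -0.49, with adjusted p up to 0.123.

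At P36, Slc51a was at 357, 373, 350 and 395 CPM in jejunum and at 1485, 1069, 646 and 1362 CPM in ileum. Each mouse was then higher in ileum, and the groups did not overlap. The log2 fold change was 1.63 (SE 0.26, adjusted p = 0.000485), and the change of the regional difference with age was 2.40 (SE 0.37, adjusted p = 0.000708). In ileum Slc51a was 1.91 higher at P36 on the log2 scale (SE 0.27, adjusted p = 1.81e-05), just under the minimum for a call. It exceeded 2 without P36 ileum replicate 3 (2.11), P6 ileum replicate 1 (2.10) or P6 ileum replicate 3 (2.02). In jejunum the difference of -0.50 did not pass (SE 0.26, adjusted p = 0.12).

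Slc51b had 119, 110, 99.9 and 110 CPM in P6 jejunum against 33.5, 20.7, 35 and 25.7 CPM in P6 ileum. The groups lay far apart for their spread, and jejunum was higher in each mouse. The log2 fold change was -1.93 (SE 0.20, adjusted p = 4.54e-06), and without P6 ileum replicate 3 it was -2.02 and passed the minimum for a call. At P36 the direction was the opposite, with 146, 135, 108 and 130 CPM in jejunum and 415, 271, 222 and 353 CPM in ileum. The log2 fold change was 1.28 (SE 0.20, adjusted p = 0.000325). The change of the regional difference was 3.21 (SE 0.28, adjusted p = 3.58e-06).

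In ileum Slc51b rose with age by 3.46 on the log2 scale (SE 0.21, adjusted p = 2.39e-09), and its jejunal difference of 0.24 did not pass (SE 0.19, adjusted p = 0.315). Per exon length, the beta subunit was at 0.668 ± 0.0656 of the alpha subunit in P6 jejunum (ratio of FPKM, mean ± SD, n = 4), 0.321 ± 0.111 in P6 ileum, 1.12 ± 0.138 in P36 jejunum and 0.899 ± 0.132 in P36 ileum. The ratio in every P6 ileum library was lower than in every library of the other groups. Slc51b overlaps Rasl12 on the opposite strand, and the authors' counting used the strand of the reads.

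**Figure D3:**
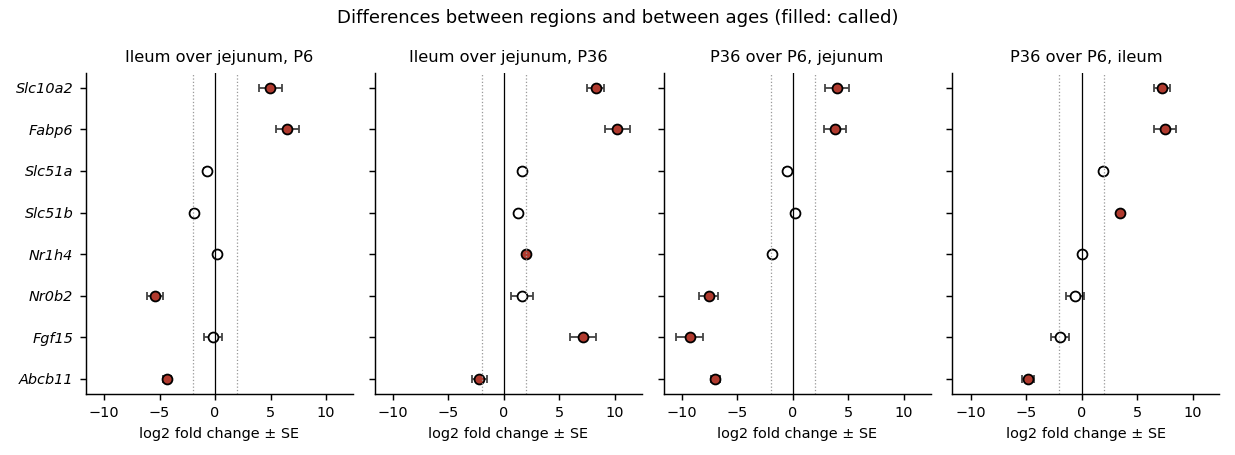
Log2 fold change with its standard error for each gene, between regions at each age and between ages in each region, from the edgeR quasi-likelihood fit. Filled points passed both limits of a call, and dotted lines mark a log2 fold change of 2 in either direction. Slc51a and Slc51b lie left of 0 at P6 and right of 0 at P36.

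Nr1h4 (mm10 chr10:89454234-89533622, minus strand) encodes FXR itself. It lay between 183 and 276 CPM in the libraries of 3 groups and was lower in the P36 jejunum. P6 jejunum had 194, 205, 183 and 196 CPM, P6 ileum 188, 200, 200 and 276 CPM and P36 ileum 215, 215, 217 and 233 CPM. P36 jejunum had 49.1, 58.3, 52.8 and 55.6 CPM, below every library of the other groups. In jejunum Nr1h4 was 3.61 times lower at P36 (-1.85 on the log2 scale, SE 0.13, adjusted p = 7.25e-09), while in ileum the difference was 0.03 (SE 0.12, adjusted p = 0.877).

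Between regions, Nr1h4 differed by 0.15 at P6 (SE 0.12, adjusted p = 0.4) and by 2.03 at P36 (SE 0.13, adjusted p = 9.27e-08). The regional difference at P36 lay at the minimum for a call: it was 1.98 without P36 jejunum replicate 1 or replicate 3 and rounded to 2.00, just short, without P36 ileum replicate 4. Within mice it ran from 1.88 to 2.13. The change of the regional difference with age was 1.88 (SE 0.18, adjusted p = 7.2e-06).

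Nr0b2 (mm10 chr4:133553390-133556536, plus strand) encodes the small heterodimer partner (SHP), a repressor that FXR induces. It was expressed in the P6 jejunum and close to absent in the other 3 groups. P6 jejunum had 32.9, 40, 19 and 36.4 CPM, from 362 to 896 counts per library. P6 ileum had 0.494, 1.38, 1.03 and 0.0981 CPM and P36 jejunum 0.177, 0.176, 0.135 and 0.16 CPM, the latter from 3 or 4 counts each. Every P6 jejunum library was above every other library of the series.

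At P6 Nr0b2 was lower in ileum, with -5.40 on the log2 scale (SE 0.73, adjusted p = 6.17e-05), and in jejunum it fell by 7.58 from P6 to P36 (SE 0.87, adjusted p = 2.32e-06). P36 ileum had 1.49, 0.0567, 0 and 0.554 CPM, or 27, 1, 0 and 7 counts, the 0 allowing up to 0.138 CPM. The regions overlapped at P36, and their difference of 1.61 on the log2 scale did not pass (SE 1.00, adjusted p = 0.317). Without P36 ileum replicate 1 it was -0.04. Neither did the ages in ileum pass (-0.58, SE 0.80, adjusted p = 0.563), although without P36 ileum replicate 1 the latter was -2.22 with an adjusted p of 0.0447. The change of the regional difference was 7.00 (SE 1.21, adjusted p = 0.0016).

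Fgf15 (mm10 chr7:144896532-144900951, plus strand) is the hormone that the ileum releases in response to bile acids. At P6 it was expressed in both regions at overlapping levels, and by P36 it was nearly gone from the jejunum. P6 jejunum had 97.7, 172, 99.1 and 149 CPM and P6 ileum 35, 92.1, 232 and 91.9 CPM. The groups overlapped, and just 1 of the 4 mice was higher in ileum. The log2 fold change was -0.20 (SE 0.78, adjusted p = 0.876).

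In P36 jejunum Fgf15 had 1, 1, 5 and 9 counts, or 0.0588, 0.0441, 0.224 and 0.48 CPM. The fall in jejunum, -9.30 on the log2 scale (SE 1.25, adjusted p = 1.28e-05), was the largest age difference of the 8 genes in that region in size. P36 ileum had 82.3, 6.24, 1.59 and 25.2 CPM, a wide spread in which every library was above every jejunum library. The regions at P36 differed by 7.13 (SE 1.20, adjusted p = 0.000665), and 1957 counts against 16 gave a ratio of 136 with a counting interval of 83.2 to 238. The change of the regional difference from P6 was 7.33 (SE 1.44, adjusted p = 0.00431).

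In ileum Fgf15 was lower at P36, by -1.97 on the log2 scale (SE 0.81), with an adjusted p of 0.0507 that missed the threshold. With limma voom it was -3.08 and passed, with an adjusted p of 0.00568 with no mouse term and 0.00646 with mouse as a replicate block, so it passed under that test with and without the block. It was -3.38 (adjusted p = 0.0022) without P36 ileum replicate 1, the library with the highest level of that group, -2.27 without P6 ileum replicate 1 and -2.05 without P6 ileum replicate 4. With library totals in place of TMM it was -2.15 (adjusted p = 0.0289). Without P6 ileum replicate 2 it was -2.05 and did not pass (adjusted p = 0.0609). It stayed uncalled in 5 of the 8 fits that left out a library and in 8 of 11 other alternatives. Over all these fits it ranged from -3.38 to -1.33, with adjusted p up to 0.178.

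In P36 ileum the libraries fell in the order of replicates 1, 4, 2 and 3 for Fgf15, Nr0b2, Fabp6, Slc51a and Slc51b. The 3 enterocyte markers Alpi, Anpep and Slc5a1 summed to 16630, 7366, 2872 and 8600 CPM in replicates 1 to 4, which is the same order. The 3 Paneth cell markers summed to 10773 CPM in replicate 3, the lowest library for those 5 genes, against 3891 to 5826 CPM in the others. Slc10a2 and Nr1h4 did not follow that order. In P36 jejunum the enterocyte sum ran from 13278 to 16894 CPM, in P6 jejunum from 5690 to 6472 CPM and in P6 ileum from 2387 to 3678 CPM. The part of cell composition in these differences was not tested.

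**Figure D4:**
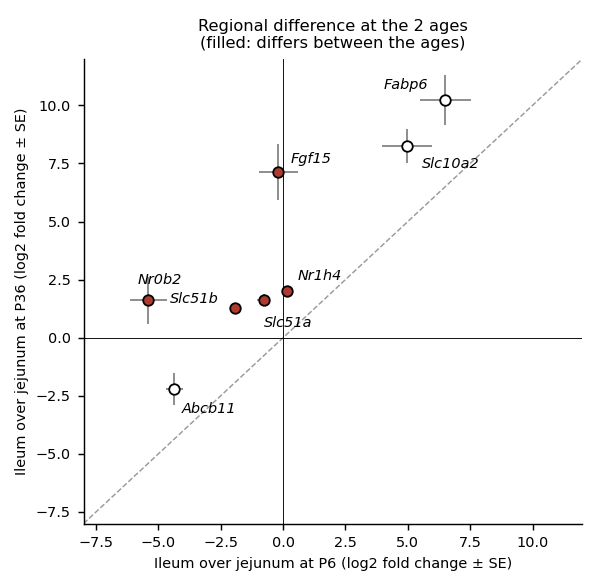
Regional log2 fold change (ileum over jejunum, ± SE) of each gene at P36 against that at P6, with the dashed line of equal values. All 8 genes lie above the line, and the 5 filled ones, Fgf15, Nr0b2, Slc51b, Slc51a and Nr1h4, passed the test of the change.

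Abcb11 (mm10 chr2:69238282-69342616, minus strand) encodes the bile salt export pump (BSEP), which in the liver secretes bile acids into the canaliculus and is a target of FXR there. It was found here in the P6 jejunum. The libraries of that group had 29.2, 44.4, 28.1 and 40.2 CPM, from 536 to 995 counts. P6 ileum had 1.48, 1.55, 1.46 and 2.4 CPM. The groups were far apart, at -4.36 on the log2 scale (SE 0.35, adjusted p = 2.73e-07) and a range within mice of -4.75 to -4.01.

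By P36 Abcb11 was close to absent in both regions, at 0.53, 0.132, 0.224 and 0.266 CPM in jejunum and 0.166, 0, 0.0408 and 0 CPM in ileum. It fell by 6.97 on the log2 scale in jejunum (SE 0.42, adjusted p = 1.36e-09) and by 4.83 in ileum (SE 0.54, adjusted p = 1.84e-06). The regional difference at P36 was -2.22 (SE 0.68, adjusted p = 0.0368), but it rested on 4 counts in ileum against 22 in jejunum, a ratio of 0.201 with a counting interval of 0.0505 to 0.593. The libraries overlapped, and the call was lost in 5 of 8 fits that left out a library and after thinning to equal depth (-1.56, adjusted p = 0.257). Those libraries were P36 ileum replicates 2, 3 and 4 and P36 jejunum replicates 1 and 4, with adjusted p from 0.0642 to 0.125. Without P36 ileum replicate 1, which held 3 of the 4 ileal counts, the difference was -3.55.

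The hepatocyte markers Alb, Cyp2e1, Slc10a1, Cyp7a1 and Fetub had 0 counts in all 4 P6 jejunum libraries, the group in which Abcb11 was highest, and summed to at most 0.276 CPM in any library. In both mice of the pair with replicates 2 and 4, jejunal Abcb11 and Fgf15 were above those of replicates 1 and 3. The regional log2 ratio of mean Abcb11 was nearly the same in the pairs, at -4.42 and -4.28.

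Per exon length the 8 genes stood in a different order in each group. In P6 jejunum the exporter subunits led, with Slc51a at 337 ± 14.9 FPKM (mean ± SD, n = 4, here and below) and Slc51b at 225 ± 15.9. Nr1h4 at 83.2 ± 3.88 and Fgf15 at 71.7 ± 20.5 followed with overlapping libraries, and then came Nr0b2 at 28.7 ± 8.2 and Abcb11 at 7.25 ± 1.65. Fabp6 (0.801 ± 0.933 FPKM) and Slc10a2 (0.0356 ± 0.0373 FPKM) came last.

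In P6 ileum Slc51a came first at 197 ± 70.7 FPKM, and Nr1h4, Fabp6, Fgf15 and Slc51b followed between 92.3 ± 17.1 and 58.8 ± 13.7 FPKM, with each neighbour in that order overlapping. In P36 jejunum Slc51b (266 ± 32.4 FPKM) and Slc51a (239 ± 12.9) overlapped and led, with Nr1h4 at 23.1 ± 1.68 and Fabp6 at 11 ± 5.96. In P36 ileum Fabp6 stood at 13319 ± 4472 FPKM and made up 88.6 ± 0.945% of the summed FPKM of the 8 genes. Slc51a (739 ± 242), Slc51b (646 ± 176) and Slc10a2 (190 ± 109) were next, and Nr1h4 was at 94 ± 3.83.

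**Figure D5:**
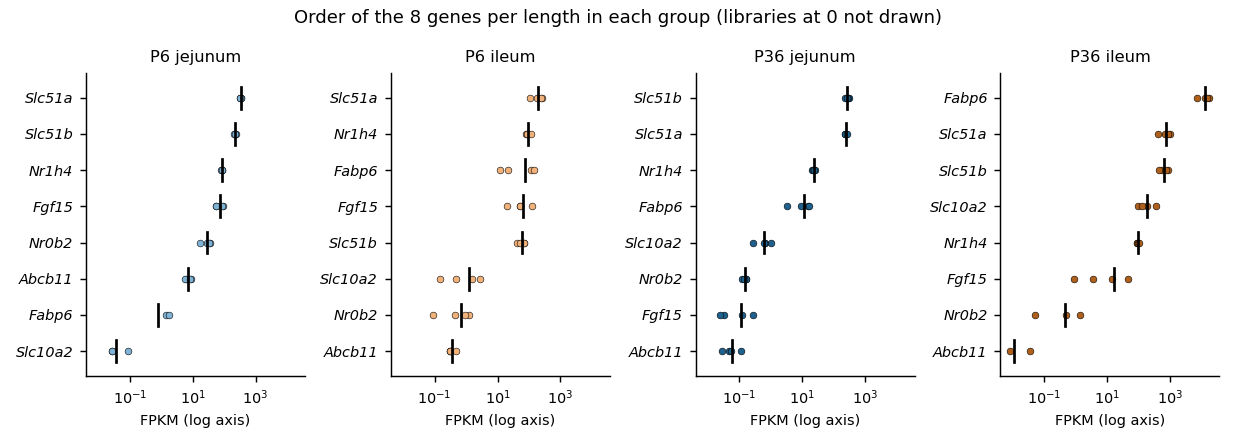
FPKM of the 8 genes in each group on a log axis, ordered by group mean, with a point for each library and a black bar for the mean. Libraries with 0 counts are not drawn. Fabp6 moves from the lower end in P6 jejunum to the top in P36 ileum.

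Without P6 ileum replicate 2, the same 4 genes as above were called between regions at P6 and the same 4 between ages in ileum. Fabp6 then differed between regions by 6.82, Slc10a2 by 5.25, Nr0b2 by -5.90 and Abcb11 by -4.31 on the log2 scale, so the differences were about as large without that library. Without P6 ileum replicate 4 the same 4 genes were called between regions at P6, and Fgf15 joined the same 4 between ages in ileum.

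Of a wider list of 74 genes of bile acid handling, compiled by hand in 5 groups, 73 were in the files and 56 were tested. Between regions, 9 were called at P6 (4 higher and 5 lower in ileum, against 4.30% and 2.20% of all tested genes). At P36, 8 were called (2 higher and 6 lower, against 1.55% and 2.06%). Between ages, 16 were called in jejunum (12 higher and 4 lower at P36, against 7.86% and 8.59%). In ileum 16 were called (10 higher and 6 lower, against 6.40% and 10.0%). The interaction test was passed by 10, of which 3 moved toward the ileum and 7 toward the jejunum, against 3.68% and 5.01%. The counts lower at P36 lie near those shares, and with so few genes no count is read as a result about the list. The median log2 fold change of the 56 was -0.09 and -0.07 between regions at P6 and P36 and 0.16 and 0.24 between ages in jejunum and ileum, against medians of all tested genes between -0.03 and 0.05.

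Of the genes of bile acid synthesis and conjugation, Cyp7a1, the rate-limiting enzyme of the classical route in liver, had 0 counts in all 16 libraries and was not tested. Cyp27a1, the sterol 27-hydroxylase, rose with age by 4.61 in jejunum (SE 0.37, adjusted p = 4.46e-08) and by 3.25 in ileum (SE 0.36, adjusted p = 1.66e-06). Baat, which conjugates bile acids to taurine or glycine, was higher in ileum at P6 by 4.99 (SE 0.41, adjusted p = 3.8e-07), from a mean of 0.13 CPM in jejunum to 4.29 CPM. At P36 its means were 3.74 and 6.52 CPM, a difference of 0.80 (SE 0.30) that did not pass (adjusted p = 0.0824). Slc27a2, a very long-chain acyl-CoA synthetase that also activates bile acid precursors, was lower in ileum at P6, with -3.65 on the log2 scale (SE 0.20, adjusted p = 6.12e-09).

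Among the other carriers, Abcc3, a basolateral export pump, rose with age by 3.73 in jejunum and 4.32 in ileum (SE 0.19 and 0.20, adjusted p = 2.57e-10 and 1.11e-10). Slco2b1, an organic anion uptake carrier, rose by 3.84 and 5.24 (SE 0.32 and 0.35, adjusted p = 5.63e-08 and 5.43e-09). Abcc2, an apical export pump for conjugates, fell in ileum by 4.40 on the log2 scale (SE 0.52, adjusted p = 3.44e-06), from a mean of 1902 to 89.9 CPM.

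Of the 22 tested nuclear receptor partners, other bile acid receptors and regulators, 2 were called higher and 1 lower at P36 in jejunum. In ileum 1 was called higher and 1 lower. Of all tested genes, 7.86% were called higher and 8.59% lower in jejunum, and 6.40% and 10.0% in ileum. The counts lie near those shares, so they describe single genes and not the group. Vdr, the vitamin D receptor, which also binds the bile acid lithocholic acid, rose by 3.04 in jejunum and 2.25 in ileum (SE 0.15 in both, adjusted p = 2.31e-10 and 5.34e-09). Hnf4g, an enterocyte nuclear receptor, rose in jejunum by 2.37 (SE 0.25, adjusted p = 1.08e-06). S1pr2, a receptor for sphingosine-1-phosphate and conjugated bile acids, fell in jejunum by 3.14 (SE 0.38, adjusted p = 4.75e-06). Gata4 was lower in ileum, at -3.28 on the log2 scale for P6 (SE 0.83, adjusted p = 0.00844) and -4.17 for P36 (SE 0.87, adjusted p = 0.00372).

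Klb and Fgfr4 encode the co-receptor and receptor for Fgf15, known from the liver. Klb was at 8.03, 10, 6.41 and 7.18 CPM in P6 jejunum and at 11.9, 9.35, 9.49 and 13.7 CPM in P6 ileum, and at most 0.939 CPM in any P36 library. It fell by 5.36 in jejunum (SE 0.49, adjusted p = 1.67e-07) and 3.77 in ileum (SE 0.42, adjusted p = 1.62e-06). Fgfr4 had means of 11.2 and 18.3 CPM in P6 jejunum and ileum and 2.53 and 10.3 CPM at P36, and it fell in jejunum by 2.13 (SE 0.44, adjusted p = 0.000692) but did not pass in ileum (-0.82, SE 0.41, adjusted p = 0.0998). Fgfbp1, a carrier protein for fibroblast growth factors, rose by 2.54 and 2.52 in jejunum and ileum (SE 0.18 in both, adjusted p = 9.3e-09 and 8.98e-09).

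Of 7 other genes described as intestinal FXR targets, 5 rose with age in jejunum and 4 in ileum, directions called for 7.86% and 6.40% of all tested genes. They included Ang4, an antimicrobial protein of Paneth cells, which rose by 5.10 in jejunum on the log2 scale (SE 0.53, adjusted p = 7.63e-07) and 5.38 in ileum (SE 0.54, adjusted p = 4.97e-07). The summed Paneth markers were at 11.6 to 52.2 CPM in the P6 libraries and 3037 to 10773 CPM at P36, and their part in the rise of Ang4 was not tested. Il18, an epithelial cytokine, rose by 3.25 and 2.45 (SE 0.27 and 0.26, adjusted p = 6.2e-08 and 1.16e-06), and Ceacam1, an adhesion molecule, by 2.22 in jejunum (SE 0.19, adjusted p = 9.88e-08).

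The genes most like each member were found by Pearson's r of log2 CPM over the 16 libraries, a description in which the libraries share their group. Fabp6 was followed most closely by Syt7 (r = 0.972), Pla2g4c (0.965) and Epb4.1l1 (0.964). Slc10a2 was followed by Suox (0.977), Rasd2 (0.971) and Mal (0.968). Suox stood at group means of 1.64 and 7.84 CPM in P6 jejunum and ileum and 11.8 and 760 CPM at P36, a rise in ileum of the same kind as that of the transporter.

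Slc51a was followed by Hnf4a (r = 0.933), Inpp5j (0.927) and Acta1 (0.921), and Slc51b by B4galt4 (0.953), Kctd5 (0.947) and Rrbp1 (0.941). For Nr1h4 these were Cldn2 (0.961), Osbpl2 (0.943) and Klf12 (0.935), and for Fgf15 Zfp467 (0.972), Kctd11 (0.952) and Phf13 (0.948). For Nr0b2 they were App (0.974), Ltk (0.965) and 9530082P21Rik (0.963). For Abcb11 they were Slc37a2 (0.984), Pid1 (0.981) and Slc16a6 (0.978), all highest in the P6 jejunum, with means of 51.5, 118 and 367 CPM there. Among the members themselves, the closest pairs were Fabp6 with Slc10a2 (0.957), Nr0b2 with Abcb11 (0.889), Fgf15 with Nr1h4 (0.855) and Slc51a with Slc51b (0.836).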

How the data were processed

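RNA sequencing was performed on jejunal and ileal epithelium of 4 P6 and 4 P36 mice. Per the labels and methods, the authors made stranded mRNA libraries (Kapa), used Trimmomatic 0.38 for trimming, STAR (2.5.3 in the submitters' processing notes) for alignment to mm10 and featureCounts of Subread 1.6.3 for counting. The deposited files hold raw counts per gene, with no normalization, in one file per library.

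Here genes were kept by filterByExpr of edgeR 4.0.16 (R 4.3.3), which left 13429 of 24421, and scaled by TMM. Counts of all 16 libraries entered 1 quasi-likelihood fit of the 4 group means. P-values were adjusted by Benjamini-Hochberg over all tested genes. Genes were called at adjusted p below 0.05 with a log2 fold change over 2 in size, except for the interaction, which had no fold minimum. The SE is the log2 fold change divided by the square root of the F statistic. Where counts are few, a fold change depends on the prior count used. CPM used TMM-scaled totals, and FPKM is CPM per kilobase of the exon length in the files. Library totals of 12159237 to 25947276 counts limit precision at low levels, where intervals are exact and cover counting error only, with 3 counts as the limit of a 0. Replicates were separate mice.

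Replicate numbers pair the libraries since both regions came from each mouse. Deviations of a mouse's libraries from their group means correlated at r = 0.157 to 0.391 at P6 and 0.24 to 0.347 at P36. Between mice r ran from -0.284 to 0.12 at P6 and from -0.367 to 0.232 at P36, with means of -0.106 and -0.101. Taking deviations from group means by itself makes the between-mouse mean negative when the same-mouse mean is positive. Replicates differed by more than sampling noise, with a chi-square of 13.2 to 272 per gene.

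Alternatives were other scalings, DESeq2 1.42.0, other filters, sex, a robust prior, thinning, each library left out, no fold minimum, mouse as a block (limma 3.58.1 for the ages) and only the groups compared. All 8 members were named. Of the wider list, up to 3 called genes of each of its 5 groups were named by smallest adjusted p, with Gata4, Fgfr4, Klb, Malrd1 and Cyp7a1 whatever their values. Malrd1 was not analysed here. The members, lists and tests were chosen with earlier results of these data known. The promoter search and the comparison of P6 mice by identifier were chosen after seeing the data. So were the sum over 3 enterocyte markers and limma voom with no mouse term. 1 marker is not reported here.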

Additional observations from a re-analysis of the deposited data

Results flagged for a closer look

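Among the 32 groups of 4 libraries formed by the 8 genes, 3 had a library whose gap to its nearest neighbour took up more of the group's range than Dixon's limit at 95%, where chance gives about 1 in 20. All 3 were replicate 4 of an ileum group. Nr1h4 was at 276 CPM in P6 ileum replicate 4 and at 233 CPM in P36 ileum replicate 4, and Abcb11 was at 2.4 CPM in P6 ileum replicate 4. These are different mice at the 2 ages.

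The regional difference at P36 exceeded or fell short of that at P6, by the edgeR interaction test, for 5 of the 8 genes and for 6 named genes of the wider list. Among the 8, the change on the log2 scale was 2.40 for Slc51a (adjusted p = 0.000708), 3.21 for Slc51b (adjusted p = 3.58e-06), 7.33 for Fgf15 (adjusted p = 0.00431), 1.88 for Nr1h4 (adjusted p = 7.2e-06) and 7.00 for Nr0b2 (adjusted p = 0.0016). In the wider list Slc27a2 (1.91, adjusted p = 0.00025) and S1pr2 (1.76, adjusted p = 0.0436) moved toward the ileum. Baat (-4.18, adjusted p = 8.19e-05), Abcc2 (-3.26, adjusted p = 0.00534), Hnf4g (-1.62, adjusted p = 0.00731) and Vdr (-0.80, adjusted p = 0.0221) moved toward the jejunum.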

How the results depend on the processing

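Of 1027 recomputed values of single genes, 994 kept their direction and their side of the threshold, or moved by less than the spread between replicates. Of the rest, 18 gained a call, 9 lost one and 6 levels or ratios moved further, and no called value turned its direction. The gains include those of Slc51a, Slc51b and Nr1h4 with no fold minimum. These were fixed in advance, since the genes had already passed the adjusted p. The number of the 8 genes called between regions at P36 was 5, and 3 to 5 with a library left out, falling to 3 without P36 jejunum replicate 1 or without P36 ileum replicate 4, through Nr1h4 and Abcb11. With mouse as a replicate block the counts were 4 and 5 between regions at P6 and P36, 5 and 5 between ages in jejunum and ileum, and 6 for the interaction, where Fabp6 joined (3.60, adjusted p = 0.0315). In ileum Fgf15 joined between ages (-3.08, adjusted p = 0.00646), and it did so under limma voom with no mouse term too (-3.08, adjusted p = 0.00568), an alternative chosen after seeing the data. No other call of the 8 changed in the block fits. Of the 56 tested genes of the wider list, 8 were called between regions at P36, where 1.55% of all tested genes were higher and 2.06% lower in ileum. The number was 4 to 9 with a library left out (4 without P36 jejunum replicate 1, 5 without P36 ileum replicate 3). Its interaction calls were 10, where 3.68% and 5.01% of all tested genes passed in the 2 directions. They were 6 to 13 with a library left out (6 without P6 jejunum replicate 1). Scaling by library totals moved the mean level of Slc51a in P6 jejunum to 468 CPM, of Slc51b to 98.5 and of Nr1h4 to 175, and of Nr1h4 in P36 ileum to 233. Genes with a few counts in a group, such as Abcb11 at P36 and Slc10a2 in P6 jejunum, are limited by depth.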
